A study of Mus musculus with 14 samples.

Results

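The feedback inhibitors of the Wnt pathway were read here as 10 genes, *Wif1*, *Axin2*, *Nkd1*, *Nkd2*, *Notum*, *Dkk2*, *Dkk3*, *Rnf43*, *Znrf3* and *Apcdd1*, in normal mouse intestine, intestinal adenomas and a colon carcinoma cell line. They were taken as the non-control probes that carry one of these names in the scanner output, which gave 13 probes out of 55681, and 10 gene names out of 36161. Each of 14 samples was hybridized to 1 one-color Agilent SurePrint G3 Mouse array, with 3 arrays for whole small intestine of C57BL/6J mice, 2 for tissue adjacent to adenomas and 3 for adenomas of APCmin/+ mice, 3 for colon labelled C57BL/6J, and 3 for CT26. APCmin/+ mice carry a truncating mutation in 1 copy of *Apc*, a component of the complex that destroys beta-catenin, on the C57BL/6J background, and form intestinal adenomas. CT26 is an established colon carcinoma line from a BALB/c mouse, so that cell line, strain and culture cannot be told apart from malignancy in its comparison with colon. The sample list of the study places all adenoma and adjacent pieces under 1 mouse and the small intestine samples under different wild type mice, so that pieces of tissue, not animals, vary among the adenoma arrays. It also places 1 colon sample under an APCmin/+ mouse, and the methods name such mice as the origin of normal colon, against the C57BL/6J of the labels, so the genotype behind every colon comparison is not settled. The sample labels do not say whether the CT26 arrays hold separate cultures. The p-values therefore measure the spread between these samples, which in part may be technical.

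Wnt ligands bind Frizzled and LRP receptors at the cell surface, and beta-catenin then accumulates and activates TCF/LEF target genes. Several of those targets encode inhibitors that act back on the pathway at successive steps, by binding or inactivating the ligand, by blocking or removing the receptors, or by restraining signalling in the cytoplasm. In the intestine the pathway maintains the stem cells at the crypt base, and loss of *Apc* activates it downstream of the ligand and the receptors. Apart from CT26, RNA came from tissue, where fewer cells of a type and less RNA per cell cannot be told apart.

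*Axin2*, *Nkd1* and *Nkd2* were each read by a pair of probes, and the other members by 1 probe. The first 30 of the 60 bases of both probes of these genes are given, to show what the pairs compared below consist of, and those of *Wif1* and *Rnf43* because these genes showed the largest change among the members, *Wif1* in adenomas against small intestine and *Rnf43*, as a lower bound, in CT26 against colon. Capitals mark G and C, the letters that pair more tightly.
*Axin2*, brighter probe: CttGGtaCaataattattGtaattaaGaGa
*Axin2*, other probe: tCCtGGGGGaaCaGattattattGCtaCtC
*Nkd1*, brighter probe: CaCtaatatttaGCCaGCCttCatGtaGaa
*Nkd1*, other probe: taaGaGatCaaGGtaGCGCataaaGGCtta
*Nkd2*, brighter probe: tCCaaCaCCCtCaCaCaGaCataCatGtaG
*Nkd2*, other probe: tGaGtttatGaaaGttGGGCatGatGCCtt
*Wif1*: GGCtGatatCtaCtCttCCttttaGGtttt
*Rnf43*: CtGaaCCaGaCaGaaaGatGCttGaatCaG
The brighter *Axin2* probe held only 20% G and C over its whole length, against a median of 43.3% over all probes and a 5th percentile of 35%, and the other *Axin2* probe held 48.3%. Positions are those of the mm9 build (NCBI37) that the scanner output uses. The *Axin2* probes lie on chromosome 11 from 108812034 to 108812093 and from 108803927 to 108803986, which is 8107 bases apart. The *Nkd1* probes lie 2308 bases apart on chromosome 8 (91116160 to 91116219 and 91118468 to 91118527), and the *Nkd2* probes 805 bases apart on chromosome 13 (73956776 to 73956835 and 73957581 to 73957640). *Wif1* was probed on chromosome 10 from 120537079 to 120537138, *Notum* on chromosome 11 from 120515209 to 120515268, *Rnf43* on chromosome 11 from 87548958 to 87549017, and *Znrf3* on chromosome 11 from 5180918 to 5180977. *Dkk2* was probed on chromosome 3 from 131842357 to 131842416 and *Dkk3* on chromosome 7 from 119259556 to 119259615. The RefSeq accessions of all 13 probes carry the same gene symbols in the RefSeq gene table. No gene model on mm9 was used, so exon and UTR positions are not given.

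All levels below are log2 signals relative to the 75th percentile of each array, which is set to 0, and levels of different probes are not compared. The share of probes well above background ran from 46.9% on colon replicate 3 to 58.2%. This library stood apart from its group. The median log2 signal of 10 enterocyte genes typical of small intestine was 5.16 on it, against -2.71 and -2.02 on the other colon arrays and 5.78 to 7.42 on the small intestine arrays. For 7 Paneth cell genes the median was 7.30 against -2.02 and -0.55, and for 9 colonocyte genes it was 2.44 against 5.0 and 5.11. Member calls and pathway counts that use colon are therefore also given without the library labelled colon replicate 3. Of 8 epithelial genes, all were well above background on every tissue array. On the CT26 arrays *Epcam*, *Cdh1*, *Krt19* and *Vil1* were well above background on 0 of 3 arrays, *Krt8* on 2, and *Krt18*, *Krt20* and *Cldn7* on 3.

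**Figure D1:**
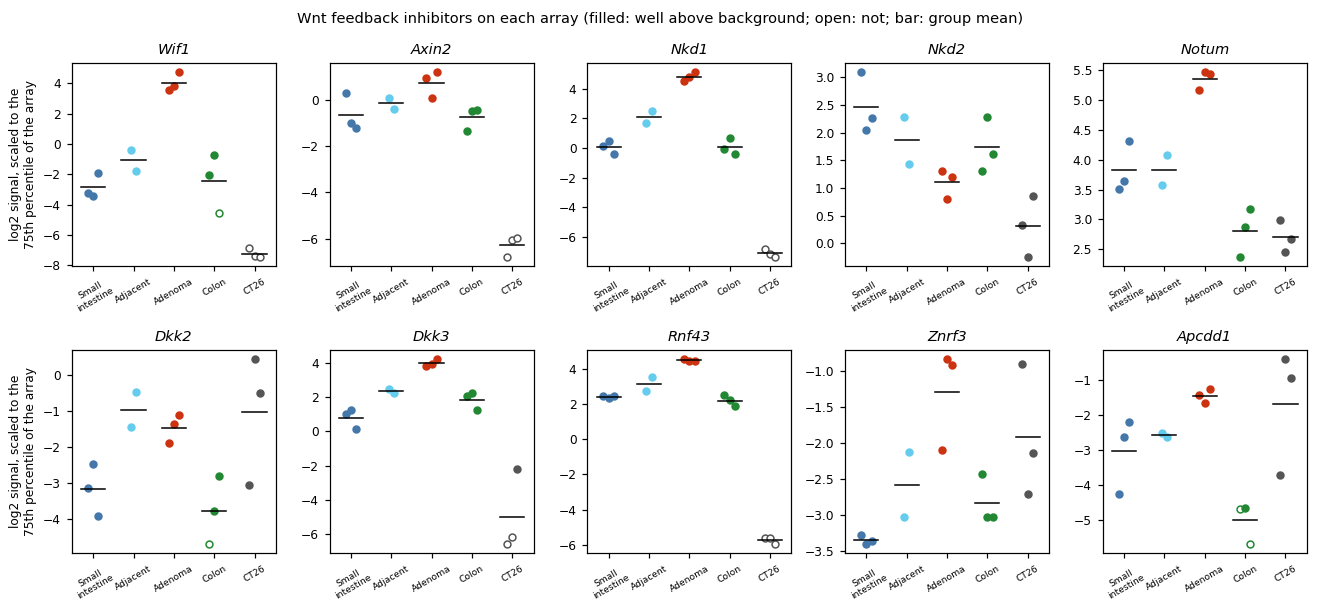
Log2 signal of each feedback inhibitor (brightest probe), scaled to the 75th percentile of the array, on the 14 arrays of 5 groups, with 1 point per array and a bar at the group mean. *Wif1*, *Nkd1*, *Dkk3* and *Rnf43* are highest on the 3 adenoma arrays, and the CT26 arrays lie at or near background for *Wif1*, *Axin2*, *Nkd1* and *Rnf43*, while those of *Notum* lie among the colon arrays.

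The comparison of adenomas with small intestine asked which genes differ between the tumor and healthy tissue of the same organ. *Wif1*, *Nkd1*, *Dkk3*, *Rnf43*, *Znrf3*, *Dkk2* and *Notum* were overexpressed in adenomas, by 2.90-fold for *Notum* to 118-fold for *Wif1*, and *Nkd2* was underexpressed by 2.58-fold. *Axin2* and *Apcdd1* had positive fold changes that did not pass the thresholds, a log2 difference of 1.2 or more either way and an adjusted p of at most 0.01 in limma. Thus 7 of 10 members were called higher and 1 lower, where 11.3% of all 22087 genes tested were called higher and 11.1% lower. The median log2 fold change of the members was 1.88, against -0.15 over all genes tested.

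Among the secreted inhibitors, *Wif1*, which binds Wnt ligands outside the cell, had log2 signals of 3.52, 3.80 and 4.72 on the adenoma arrays and of -3.25, -3.45 and -1.90 on the small intestine arrays. The groups lay more than 5 log2 units apart at their nearest arrays, and the log2 fold change was 6.88 (SE 0.477, adjusted p = 0.000126 in limma). *Dkk3*, a divergent member of the Dickkopf family, reached 3.82, 3.93 and 4.20 in adenomas and 1.0, 1.25 and 0.16 in small intestine, a log2 fold change of 3.18 (SE 0.298, adjusted p = 0.000324 in limma). *Notum*, an enzyme that inactivates Wnt ligands by removing their lipid, had log2 signals of 5.17, 5.47 and 5.44 in adenomas and of 3.50, 3.65 and 4.31 in small intestine. Its groups did not overlap, and the log2 fold change was 1.54 (SE 0.245, adjusted p = 0.00255 in limma). *Dkk2*, a Dickkopf protein that binds the LRP co-receptors, had -1.87, -1.36 and -1.11 in adenomas and -3.12, -2.45 and -3.91 in small intestine. Its log2 fold change of 1.71 (SE 0.388, adjusted p = 0.00995 in limma) lay just inside the threshold. In 7 of 8 alternative ways of processing or fitting all arrays the call was lost, with values down to 1.03.

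At the cell surface, *Rnf43* and *Znrf3* encode transmembrane ubiquitin ligases that remove Frizzled receptors. *Rnf43* varied little within groups, with 4.55, 4.46 and 4.46 in adenomas against 2.46, 2.35 and 2.47 in small intestine, and a log2 fold change of 2.06 (SE 0.146, adjusted p = 0.000135 in limma). *Znrf3* had the same log2 fold change of 2.06 with a larger error (SE 0.338, adjusted p = 0.00289 in limma). Its small intestine arrays lay close together at -3.27, -3.40 and -3.35, and its adenoma arrays were spread, with -2.10, -0.84 and -0.92. *Apcdd1*, a membrane glycoprotein that binds Wnt ligands and LRP receptors and was probed on chromosome 18 from 63112729 to 63112788 (mm9), had -1.43, -1.67 and -1.27 in adenomas and -4.26, -2.63 and -2.20 in small intestine. These groups did not overlap either, but 1 small intestine array was far below the other two, and the log2 fold change of 1.58 (95% interval 0.39 to 2.76) had a limma adjusted p of 0.0343.

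In the cytoplasm, *Nkd1* and *Nkd2* encode Naked cuticle proteins, which bind Dishevelled, and *Axin2* a scaffold of the beta-catenin destruction complex. *Nkd1* had 4.5, 4.77 and 5.09 in adenomas and 0.11, 0.49 and -0.39 in small intestine, a log2 fold change of 4.72 (SE 0.272, adjusted p = 9.05e-05 in limma), and its other probe gave 3.61 (limma adjusted p = 9.9e-05). Its paralog *Nkd2* went the other way. The brighter *Nkd2* probe had 1.3, 0.81 and 1.2 in adenomas and 3.09, 2.05 and 2.26 in small intestine, a log2 fold change of -1.37 (SE 0.299, adjusted p = 0.00879 in limma), and the other probe gave -2.59 (limma adjusted p = 0.00276). *Axin2*, a widely used Wnt target, had 0.93, 0.05 and 1.18 in adenomas and 0.29, -1.02 and -1.2 in small intestine, so that 1 small intestine array lay within the range of the adenomas. Its log2 fold change was 1.37 (95% interval 0.28 to 2.45, limma adjusted p = 0.0421) by the brighter probe and 0.91 (limma adjusted p = 0.0327) by the other. Without small intestine replicate 1 the brighter probe gave 1.83 (limma adjusted p = 0.00581), which passed both thresholds, and with any other array left out it did not (limma adjusted p from 0.036 to 0.127).

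Of the 10 members, 9 did not overlap between adenomas and small intestine, where 65.2% of all genes tested did not. With 1 array left out, 4 to 7 members were called. There were 4 without adenoma replicate 2 or replicate 3 and 5 without small intestine replicate 2. The share of all genes called in these fits is not given. *Wif1*, *Nkd1*, *Dkk3* and *Rnf43* were called whichever array was left out, *Notum* and *Znrf3* in 3 of 6 cases, *Dkk2* in 1 and *Nkd2* in 0. Within each slide the difference kept its direction for every member. It ran from 6.70 and 7.25 for *Wif1* to -1.43 and -1.24 for *Nkd2* on slides 1 and 2. For the 9 members without overlap the direction could not have changed, and slide 2 held 1 array of each group. Markers of other cells moved between the same groups. Of 10 proliferation genes 8 were called higher in adenomas, of 8 fibroblast genes 3 higher, of 6 endothelial genes 4 higher, and of 10 enterocyte genes 7 lower. Of 7 Paneth cell genes 4 were lower and 1 higher, and of 8 epithelial genes 3 lower and 1 higher. Smooth muscle had 1 of 8 lower and 0 higher, leukocytes 2 of 7 lower and 1 higher, and colonocytes 3 of 9 lower and 2 higher. The summed signal of the fibroblast genes was 6.75 to 6.94 (log2) on the adenoma arrays and 4.18 to 6.36 on those of small intestine, and that of the proliferation genes 7.35 to 7.49 against 5.61 to 6.51. That of the endothelial genes overlapped, with 4.03 to 4.35 against 3.54 to 4.05. The part of these cells in the result was not tested.

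Adjacent tissue was compared with adenomas to set the tumor against non-tumor tissue of the same mouse model. *Wif1*, *Nkd1* and *Dkk3* were overexpressed in adenomas, 34.1-fold, 6.46-fold and 3.1-fold, so that 3 of 10 members were called higher and 0 lower, against 2.4% higher and 1.79% lower among 22198 genes. By unadjusted p under 0.05 in the same limma fit, 7 members were higher and 1, *Nkd2*, was lower, where 18.4% of all genes were higher and 19.9% lower by that measure. On the adjacent arrays *Wif1* had log2 signals of -0.38 and -1.77, *Nkd1* of 1.71 and 2.48, and *Dkk3* of 2.49 and 2.21, all below every adenoma array. Their log2 fold changes were 5.09 (SE 0.521, adjusted p = 0.00554 in limma), 2.69 (SE 0.296, adjusted p = 0.0062 in limma) and 1.63 (SE 0.189, adjusted p = 0.00692 in limma). The other *Nkd1* probe gave 1.91 (limma adjusted p = 0.0104), beyond the threshold. *Notum* had 3.57 and 4.08 on the adjacent arrays, a log2 fold change of 1.53 that narrowly missed it (limma adjusted p = 0.0102). *Rnf43* had 2.74 and 3.57, a log2 fold change of 1.33 (limma adjusted p = 0.0244), *Apcdd1* -2.51 and -2.62, a log2 fold change of 1.11 (limma adjusted p = 0.0147), and *Znrf3* -3.03 and -2.13, a log2 fold change of 1.29 (limma adjusted p = 0.104). The adenoma and adjacent arrays did not overlap for 8 of 10 members, against 57.1% of all genes tested. These calls rested on the arrays used, since 0 members were called without any 1 of the adenoma arrays. The share of all genes called in those fits is not given. With the slide as a block 0 were called and the values of the 3 genes hardly moved (4.96, 2.74 and 1.60, limma adjusted p = 0.011, 0.0134 and 0.0161). Within slides 1 and 2 the differences were 4.5 and 5.57 for *Wif1*, 3.09 and 2.28 for *Nkd1*, and 1.52 and 1.72 for *Dkk3*.

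**Figure D2:**
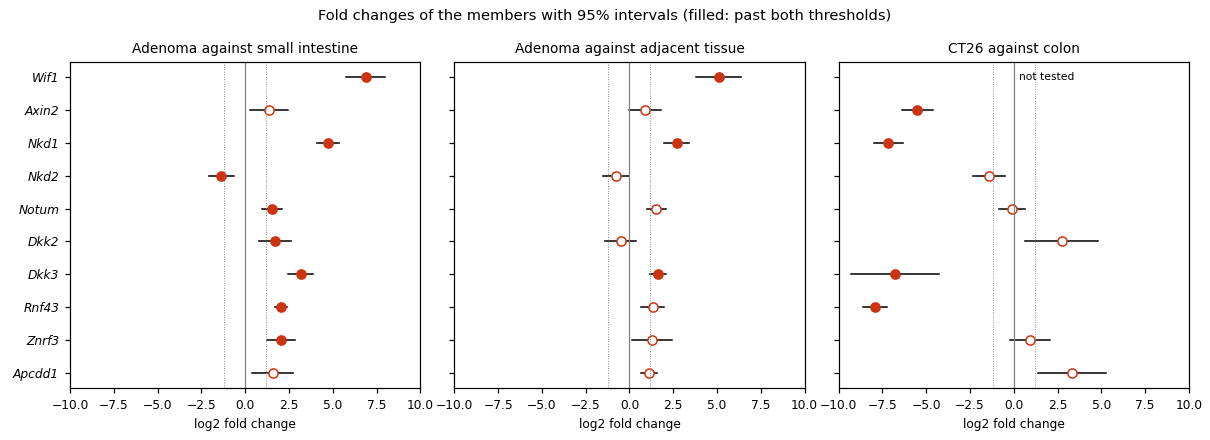
Log2 fold change of each member (brightest probe) with its 95% interval from the limma fit in 3 comparisons, with dotted lines at a size of 1.2. Filled points passed both thresholds, 8 of them in adenomas against small intestine, 3 against adjacent tissue and 4, all negative, in CT26 against colon, where *Wif1* was not tested and the points of *Rnf43*, *Nkd1* and *Axin2* rest on CT26 signals at background.

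Adjacent tissue against small intestine asked whether tissue beside the tumors differs from that of healthy mice. In the limma fit 0 of 10 members passed the thresholds, as did 2 of 21640 genes (0.00924%), and 6 members, *Wif1*, *Nkd1*, *Dkk2*, *Dkk3*, *Rnf43* and *Znrf3*, were higher at an unadjusted p under 0.05, as were 12.8% of all genes. The arrays of these groups did not overlap for the same 6 members, against 52.9% of all genes. *Dkk2* had the largest log2 difference, 2.21 (95% interval 0.97 to 3.44, limma adjusted p = 0.0677), with -1.44 and -0.47 on the adjacent arrays, which overlap those of adenomas. *Nkd1* differed by 2.03 (limma adjusted p = 0.0542) and *Wif1* by 1.79 (limma adjusted p = 0.121). The comparisons of adjacent tissue and adenomas share arrays, so the levels are set side by side as a description. On a scale from 0 at the mean of small intestine to 1 at that of adenomas, adjacent tissue lay at 0.003 for *Notum*, whose 3 small intestine and 2 adjacent arrays overlap, at 0.26 to 0.49 for 8 members from *Wif1* to *Dkk3*, and at 1.29 for *Dkk2*. Paneth cell and smooth muscle genes differed between the adjacent arrays, with medians of 9.10 and 5.24 for the former and of 5.65 and 3.82 for the latter on replicates 1 and 2. Against small intestine the median log2 fold change was 2.03 for 6 endothelial genes, of which *Kdr* went the other way. It was 0.90 for 8 fibroblast genes and -1.10 for 10 enterocyte genes, and 0 genes of these lists were called. The part of these cells was not tested.

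Colon was compared with small intestine as the other normal tissue. Again 0 of 10 members were called by limma, as were 2 of 20641 genes (0.00969%), with 1 member higher and 2 lower at an unadjusted p under 0.05, where 10.4% of all genes were higher and 13.5% lower. *Apcdd1* was near background in colon, with -4.70, -4.66 and -5.70 and only replicate 2 well above background, a log2 difference from small intestine of -1.99 (95% interval -3.40 to -0.58, limma adjusted p = 0.126). *Notum* had 2.37, 2.88 and 3.18 in colon, all below the small intestine arrays, a difference of -1.01 (limma adjusted p = 0.149), and *Dkk3* had 2.06, 2.21 and 1.22, a difference of 1.03 (limma adjusted p = 0.193). *Nkd1* was at the same mean in both tissues (0.07), with -0.06, 0.70 and -0.43 in colon, and a 95% interval of the difference from -0.91 to 0.91. Without colon replicate 3 still 0 members were called, while 3.34% of all genes were then called higher and 3.9% lower. *Wif1*, not well above background on that array (-4.55), had -2.03 and -0.71 on the other colon arrays.

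CT26 cells were compared with colon to set advanced malignancy against its normal tissue. *Rnf43*, *Nkd1*, *Dkk3* and *Axin2* were underexpressed in CT26. By their brightest probes *Notum*, *Dkk2*, *Znrf3*, *Nkd2* and *Apcdd1* were well above background on all 3 CT26 arrays, but the other *Nkd2* probe was so on 0. Of 9 members tested, 4 were called lower and 0 higher, where 16.2% of 21671 genes were called lower and 21% higher, and the median gene tested lay at 0.32 (log2). These 4 passed the filter through colon alone, so a call could hardly be other than lower. They were well above background on 0 of 3 CT26 arrays, or for *Dkk3* on 1. Where probes had to be well above background throughout both groups, 3 members were tested and 0 called. In the same limma fit 2 members were higher and 5 lower at an unadjusted p under 0.05, where 36.4% of all genes were higher and 22.2% lower.

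*Rnf43* had log2 signals of 2.51, 2.21 and 1.89 in colon and was not well above background on any CT26 array, which makes it at least 145-fold lower there (limma adjusted p = 1.55e-06). A bound of this kind sets the colon mean against, for each CT26 array, the lowest signal among probes well above background or the probe's own signal, whichever is higher. By the same rule *Nkd1* was at least 33.1-fold lower (limma adjusted p = 5.27e-06) and *Axin2* at least 18.5-fold lower (limma adjusted p = 2.39e-05), and the other *Axin2* probe gave at least 8.65-fold (limma adjusted p = 0.000269). *Axin2* had -1.35, -0.49 and -0.46 in colon. *Dkk3* was well above background on CT26 replicate 3 alone, with -6.57, -6.16 and -2.18 against a colon mean of 1.83, a log2 fold change of -6.80 (SE 1.07, adjusted p = 0.00143 in limma). *Wif1* was not tested, since it was well above background on 2 of 3 colon arrays and on 0 of 3 CT26 arrays, and it was at least 5.85-fold lower in CT26. Without colon replicate 3 it was tested and called lower (limma adjusted p = 4.29e-05), so that 5 members were called lower, against 19.4% of all genes. The 4 calls above held without that library. All 4 were lower in CT26 within each slide, which follows from groups that did not overlap.

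Among the members well above background on every CT26 array, *Dkk2*, *Apcdd1* and *Znrf3* varied between arrays. *Dkk2* had -3.04, 0.44 and -0.48, and *Apcdd1* -3.72, -0.41 and -0.95, with replicate 1 more than 2 log2 units below the other two in both genes. *Znrf3* had -0.90, -2.70 and -2.14, with replicate 1 the highest. The log2 fold change of *Apcdd1* was 3.33 (SE 0.827, adjusted p = 0.0114 in limma) and that of *Dkk2* 2.72 (SE 0.893, adjusted p = 0.0348 in limma). Without CT26 replicate 1 both passed the thresholds (4.34, limma adjusted p = 0.000941, and 3.73, limma adjusted p = 0.00534), so that 2 members were called higher and 4 lower. For that fit the share of all genes called is not given, so the count need not be particular to the members. Without colon replicate 3 neither was called, with log2 fold changes of 2.98 (limma adjusted p = 0.0264) for *Apcdd1* and 3.20 (limma adjusted p = 0.0238) for *Dkk2*. *Znrf3* was not called either, at 0.92 with all arrays and 0.82 without that library. *Notum* had 2.99, 2.45 and 2.67 in CT26 among the colon values, with a difference of -0.11 and a 95% interval from -0.87 to 0.65, and lay at 0.08 without colon replicate 3. All 8 epithelial and 7 of 8 smooth muscle genes were called lower in CT26, with a summed signal of the former of 5.19 to 5.82 (log2) against 10.59 to 11.58 in colon, and 8 of 10 proliferation genes were called higher. Of 8 fibroblast genes 2 were called higher and 3 lower, with a summed signal of 8.57 to 8.71 in CT26 and 5.47 to 6.64 in colon. The median signal of these genes went the other way, with -0.77 to 1.99 in CT26 and 1.89 to 3.12 in colon. The part of all these lists in the result was not tested.

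The probes of *Nkd2* differed in the size of their change in CT26. The brighter probe had 0.34, -0.24 and 0.86 on the CT26 arrays and 1.31, 2.28 and 1.62 in colon, a log2 fold change of -1.42 (limma adjusted p = 0.02), not past the threshold, and -1.47 (limma adjusted p = 0.0261) without colon replicate 3. With the slide as a block it was -1.69 (limma adjusted p = 0.00735) and passed. The other probe had -6.84, -7.44 and -7.38, not well above background on any CT26 array, and -2.46, -1.69 and -1.19 in colon, which is at least 9.17-fold lower (limma adjusted p = 2.96e-05). Both probes match the same accession, lie 805 bases apart and hold 36.7% G and C. In all 3 genes the probes of a pair had differences of the same sign in every comparison in which both were tested. The other *Nkd1* probe was brighter in CT26 replicate 2 (-4.42, well above background) than in the other CT26 arrays (-5.96 and -7.10).

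**Figure D3:**
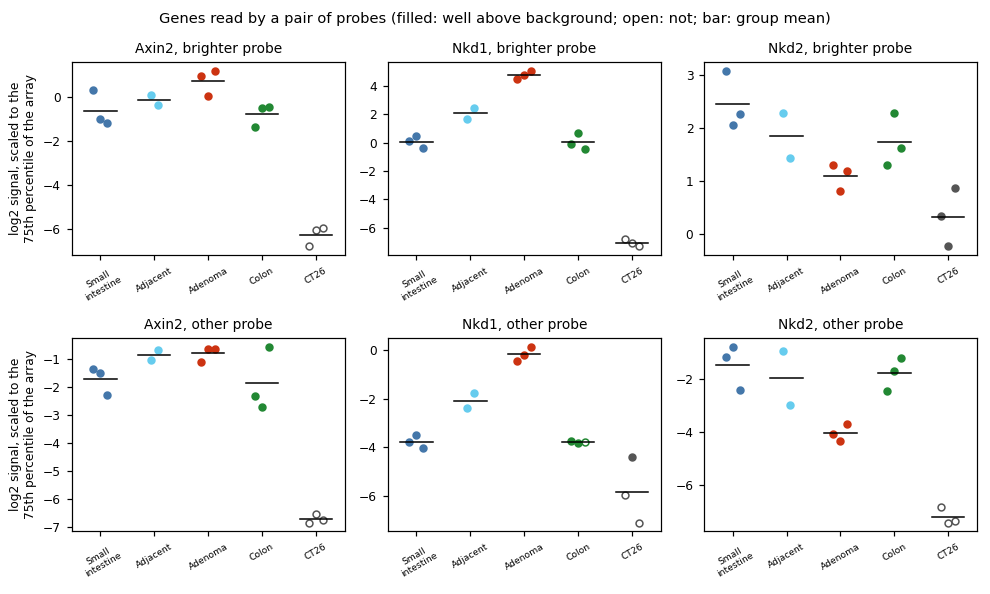
Log2 signal, scaled to the 75th percentile of the array, of both probes of *Axin2*, *Nkd1* and *Nkd2* on the 14 arrays, with 1 point per array and a bar at the group mean. Both *Nkd2* probes are lower in adenomas than in small intestine, but in CT26 the brighter one is well above background on 3 of 3 arrays and the other on 0 of 3.

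Adenomas were also set against colon. *Nkd1*, *Apcdd1*, *Notum* and *Rnf43* were overexpressed in adenomas, so that 4 of 10 members were called higher and 0 lower, against 2.07% higher and 1.62% lower among 21859 genes. All 10 members had groups that did not overlap, as had 38.8% of all genes. The log2 fold changes were 4.72 for *Nkd1* (SE 0.339, adjusted p = 0.00188 in limma), 3.57 for *Apcdd1* (SE 0.331, adjusted p = 0.00327 in limma), 2.55 for *Notum* (SE 0.260, adjusted p = 0.00419 in limma) and 2.29 for *Rnf43* (SE 0.217, adjusted p = 0.00351 in limma). Since *Apcdd1* was well above background on 1 of 3 colon arrays, its fold change rests on signals near background. *Wif1* (6.45, limma adjusted p = 0.0114) and *Dkk3* (2.15, limma adjusted p = 0.0103) missed the threshold. Without colon replicate 3 *Wif1* (5.39, limma adjusted p = 0.00171), *Dkk3* (1.84, limma adjusted p = 0.00184) and *Dkk2* (2.78, limma adjusted p = 0.00398) were called too. Then 7 members passed, against 5.02% of all genes called higher. With that array kept and all 5 groups in 1 fit *Wif1* passed as well (6.45, limma adjusted p = 0.000294). No member was called without any 1 of the adenoma arrays or without colon replicate 1, and 2 were without colon replicate 2. The share of all genes called in those fits is not given. With the slide as a block *Nkd1* alone was called, *Notum*, *Rnf43* and *Apcdd1* having limma adjusted p = 0.0192, 0.0164 and 0.0142. Of 8 smooth muscle genes 6 were called lower in adenomas than in colon, with a summed signal of 6.60 to 6.88 (log2) against 9.04 to 9.51, and of 9 colonocyte genes 5 were lower, with 4.35 to 4.58 against 9.10 to 9.71. Of 10 proliferation genes 1 was called higher, and of 8 epithelial and 8 fibroblast genes 0 were called in either direction by limma. The part of these cells was not tested.

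The difference between the tumor comparisons was then tested directly, as the log2 fold change of adenomas against small intestine minus that of CT26 against colon. It was positive and passed the thresholds for 6 of 10 members, *Nkd1*, *Wif1*, *Rnf43*, *Dkk3*, *Axin2* and *Notum*, and 0 members passed in the negative direction, where 15.3% of 23413 genes were called in the positive direction and 15.5% in the negative one. For *Nkd1* the difference was 11.87 (SE 0.469, adjusted p = 1.22e-08 in limma), for *Wif1* 11.70 (SE 1.12, adjusted p = 1.03e-05 in limma) and for *Rnf43* 9.99 (SE 0.303, adjusted p = 2.5e-09 in limma). It was 9.97 for *Dkk3* (limma adjusted p = 9.46e-05), 6.87 for *Axin2* (limma adjusted p = 8.41e-06) and 1.65 for *Notum* (limma adjusted p = 0.00679). Apart from *Notum*, the CT26 arrays behind these values were at background on at least 2 of 3 arrays, so that the sizes are not exact. *Znrf3* (1.14, limma adjusted p = 0.169), *Nkd2* (0.05, limma adjusted p = 0.947), *Dkk2* (-1.01, limma adjusted p = 0.482) and *Apcdd1* (-1.75, limma adjusted p = 0.214) were not called, with 95% intervals from -0.26 to 2.54, -1.11 to 1.21, -3.44 to 1.41 and -4.15 to 0.65. The other *Nkd2* probe was called, with 2.85 (limma adjusted p = 0.00322). Without colon replicate 3 *Notum* had 1.46 (limma adjusted p = 0.0108) and 5 members remained called.

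The rest of the pathway was read through lists of 95 genes, of which 76 could be tested between adenomas and small intestine. Of these 24 were called higher and 5 lower, where 11.3% of all genes were called higher and 11.1% lower. The median log2 fold change of the pathway genes was 0.43. The list of other Wnt targets came nearest to the members, with 8 of 14 called higher, 0 lower and a median of 2.06. *Prox1*, a homeobox transcription factor, had the largest log2 fold change of the list (5.33, limma adjusted p = 0.000174, well above background on 1 small intestine array), followed by *Tnfrsf19* (3.53, limma adjusted p = 0.000335), a receptor of the tumor necrosis factor family, and *Cd44* (3.28, limma adjusted p = 0.000145), the hyaluronan receptor. Of 8 genes tested in the list of other secreted inhibitors 4 were called higher and 1 lower. The list also holds *Kremen1* and *Kremen2*, which encode membrane proteins. *Sfrp2* and *Sfrp4*, secreted Frizzled-related proteins, were well above background in adenomas but on 0 of 3 arrays of small intestine, and were at least 6.90-fold and at least 2.28-fold higher in adenomas, and *Igfbp4*, a binding protein of insulin-like growth factors, had a log2 fold change of 2.76. *Sfrp5*, named as the 1 gene of the list that fell, had -1.44 (limma adjusted p = 0.00223). Of 4 genes for R-spondins, which oppose *Rnf43* and *Znrf3*, and their receptors, the stem cell marker *Lgr5* rose (3.62, limma adjusted p = 0.000334) and the ligand *Rspo1* fell (-2.54, limma adjusted p = 0.00849).

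Among the Wnt ligands and their processing genes, 4 of 12 were called higher in adenomas and 0 lower. *Wnt10a*, not measured above background in small intestine (0 of 3 arrays), was at least 12.1-fold higher, *Wnt6* had a log2 fold change of 2.04, and *Porcn*, the enzyme that attaches the lipid *Notum* removes, had 1.93 (limma adjusted p = 0.00133). Of 14 receptors 4 were called higher and 0 lower, with log2 fold changes of 6.45 for *Fzd10*, 3.26 for *Fzd6* and 2.24 for *Fzd3*, which were well above background on 1, 2 and 1 of 3 small intestine arrays. Of 12 nuclear factors 3 were called higher and 3 lower. The TCF/LEF factors *Lef1* (5.77, limma adjusted p = 3.4e-05) and *Tcf7* (2.96, limma adjusted p = 0.000139) rose, and the co-repressor *Tle3* fell (-1.62, limma adjusted p = 0.000416). None of 12 genes of the destruction complex and cytoplasm was called in either direction in this limma fit, with a median of -0.27. Against adjacent tissue 8 of 75 pathway genes were called higher and 1 lower, where 2.4% of all genes were called higher and 1.79% lower.

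In CT26 against colon, 10 of 69 pathway genes were called higher and 24 lower, with a median of -0.16 against 0.32 over all genes tested. Of all genes 21% were called higher and 16.2% lower. Without colon replicate 3 the pathway counts were 11 and 34 of 76, where 20.1% of all genes were called higher and 19.4% lower. Of 5 genes for R-spondins and their receptors 4 were called lower and 1 higher, also without colon replicate 3, with *Lgr5* at least 23.1-fold, *Rspo3* at least 17.1-fold and *Lgr4*, well above background on 1 of 3 CT26 arrays, at a log2 fold change of -5.54. The gene called higher was *Lgr6*, an R-spondin receptor above background on 0 of 3 colon arrays and at least 2.81-fold higher in CT26. Of 13 receptors 6 were called lower and 1 higher, with *Ror2*, *Fzd9* and *Fzd1* at least 44.4-fold, 25.6-fold and 32.9-fold lower. These counts became 8 and 1 of 14 when colon replicate 3 was left out. Of 5 genes in the list of other secreted inhibitors, *Kremen2*, *Sfrp1* and *Sfrp5* were at least 19.9-fold, 6.26-fold and 7.86-fold lower, and 0 were called higher. With colon replicate 3 left out, 7 of 9 were lower and 0 higher. Among 11 ligands and processing genes 3 were called higher and 3 lower. *Wnt10a* rose by a log2 fold change of 9.37 (limma adjusted p = 0.000277, well above background on 1 of 3 colon arrays), and *Wnt5a* and *Wnt6* were at least 13.2-fold and 3.70-fold lower. Leaving out colon replicate 3 gave 3 higher and 4 lower of 11. Of 11 nuclear factors *Lef1* was called higher (5.03, limma adjusted p = 0.00048) and 3 were lower, among them *Tcf7* (at least 4.79-fold) and *Tcf7l2* (-3.48, limma adjusted p = 0.00129), against 1 higher and 4 lower of 12 without colon replicate 3. Of 12 other Wnt targets 2 rose and 4 fell, and without colon replicate 3 it was 3 and 7 of 13, with *Ascl2*, a factor of intestinal stem cells, at -5.97 (limma adjusted p = 8.8e-05), *Tnfrsf19* at least 13.8-fold lower and *Myc* at 3.65 (limma adjusted p = 0.00114). In the destruction complex and cytoplasm *Dvl2* (2.88, limma adjusted p = 0.00011) and *Axin1* (1.58, limma adjusted p = 0.00236) rose and *Ctnnb1*, the gene of beta-catenin, fell (-1.40, limma adjusted p = 0.00986), a call lost without colon replicate 3.

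**Figure D4:**
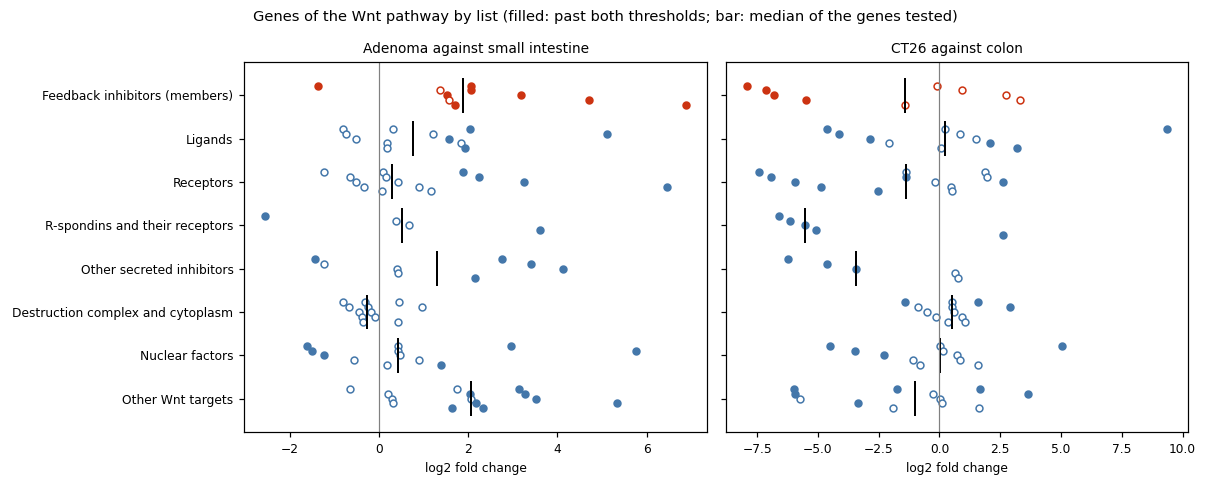
Log2 fold changes of the members (red) and of the other Wnt pathway genes (blue) by list, in adenomas against small intestine (left) and CT26 against colon (right). Each point is a gene, filled if past both thresholds, and bars mark the median of the genes tested, which is 1.88 for the members on the left and -1.42 on the right.

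The genes most like each member were taken as those with the smallest root mean square difference of centred log2 signals over the 14 arrays, among 14263 named genes, which is a description of shared levels alone. For *Nkd1* the nearest was *Lgr5*, at 0.67 log2 units, and for *Rnf43* it was *Cdkn1c*, a cell cycle inhibitor, at 0.31, followed by *Fabp5* (0.52) and *Alcam* (0.55). *Wif1* was nearest to *Asb4* (0.91), *Serpina3n* (1.11) and *Tesc* (1.17), and *Tesc* (0.90) and *Fxyd3* (0.79) were also near *Nkd1*. *Axin2* was nearest to *Krt81* (0.55), *Lbh* (0.56) and *Ehd3* (0.59). *Dkk3* was nearest to *Sidt1* (0.83), *Notum* to *Rdh10* (0.45), *Znrf3* to *Zbtb38* (0.40), *Dkk2* to *Fam55c* (0.73) and *Apcdd1* to *Gls2* (0.87).

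RefSeq promoter windows of GRCm38.p6, each 300 bases around the start of a gene, were at hand for 6 members (*Axin2*, *Dkk2*, *Nkd1*, *Nkd2*, *Rnf43* and *Wif1*) in 7 windows. The letters CTTTGAA and CTTTGAT, forms of the TCF/LEF binding motif, were searched on both strands. They were in 0 of the 7 windows and in 8.65% of 32851 windows of all genes, which says only that these letters do not stand in these short windows.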

How the data were processed

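RNA of 14 samples was labelled with Cy3 and hybridized to Agilent arrays. The authors deposited Feature Extraction 10.7.3.1 output per array, in which the processed signal is an intensity, corrected for background within the array and not scaled across arrays. A further table deposited by the authors holds log2 values, made comparable across arrays by a method not given in the sources used here. Its column medians are 6.8, but 6.79 for adjacent replicate 1 and colon replicate 3 and 6.83 for CT26. Its distributions are nearly equal, and whether genes were centred is not stated. Its 28 other sample columns (flags and detection) and the authors' fold changes and p-values for pairs of groups were not used. After control and outlier spots (103 to 206 per array) were removed, log2 signals were reduced by the 75th percentile of their array and averaged over spots of a probe.

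Samples were grouped by their labels. Each pair of groups was fitted on its own arrays with limma 3.58.1 (R 4.3.3), testing probes that were well above background throughout 1 or more of the groups, with Benjamini-Hochberg adjustment across them. A gene, read from its brightest probe, was called at the thresholds of the study (1.2 on the log2 scale, adjusted p 0.01). SE and 95% intervals are those of limma, and the number of arrays limits the precision. The method was also run on simulated data with independent normal noise, and the outcome is not given here. Members and gene lists were chosen with earlier results of these data known. All 10 members were named, and from each pathway list at most the 3 called genes of largest change, apart from *Sfrp5* in adenomas and *Lgr6* in CT26, which were added after their values were seen. Of the marker genes *Muc3* and *Defa24* were not found by name, while *Defa17* was read as *Defa3* and *Adgre1* as *Emr1*. Alternatives were normexp background correction, quantile normalization, the authors' table, other filters on low signals, 1 fit of all groups, slide or replicate number as a block, other thresholds, any probe of a gene, and each array left out in turn. A block by the numbers in the sample titles was added after seeing the data. The gene nearest to *Nkd2* in level is not reported here.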

Additional observations from a re-analysis of the deposited data

Results flagged for a closer look

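The effects in the early and the advanced tumor comparison differed for 6 members, by a test of the difference itself (limma, log2 fold change of adenomas against small intestine minus that of CT26 against colon). The differences were 11.87 for *Nkd1*, 11.70 for *Wif1*, 9.99 for *Rnf43*, 9.97 for *Dkk3*, 6.87 for *Axin2* and 1.65 for *Notum*. Those of *Nkd1*, *Wif1*, *Rnf43*, *Dkk3* and *Axin2* held in all 12 fits with 1 array left out, while that of *Notum* held in 3 of them. For all of these members but *Notum*, most CT26 signals behind the differences were at background, so that the sizes are not exact. Organ, strain, culture and the presence of other cells differ along with tumor stage between these comparisons and cannot be told apart from it. The genotype of the colon samples is not settled either.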

How the results depend on the processing

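For members called in a comparison, 266 values kept their call under the alternatives, 92 lost it and 0 reversed. The count of members called between adenomas and small intestine (8) was 5 with all 5 groups in 1 fit and 4 to 7 with 1 array left out. Against adjacent tissue it was 3, and it became 5 with normexp, 6 with the other thresholds and 1 with all 5 groups in 1 fit. It became 0 with every probe tested, the slide as a block or a replicate block (by replicate or title numbers). It was also 0 with any 1 adenoma array left out. In CT26 against colon 4 calls, all lower, became 7 with all 5 groups in 1 fit or the other thresholds. In each case 5 were lower and 2 higher. With quantile normalization or the replicate block 4 were lower and 1 higher. When any probe of a gene could be called, 5 were lower and 0 higher. The count became 0 of the 3 members that passed the strict filter (well above background throughout both groups), and 4 to 6 with 1 array left out. Between adenomas and colon 4 became 2 with every probe tested, 1 with the slide as a block, 7 with the other thresholds, 0 with the replicate block and 0 to 7 with 1 array left out. For the difference between the tumor comparisons 6 became 1 of 3 members under the strict filter, and 5 to 6 with 1 array left out. Shares of all genes called are not set beside these counts, so a change in them need not be particular to the members. Arrays with the same replicate number did not deviate together in every pair (correlations from -0.223 to 0.302). With so few arrays per group this cannot decide whether samples were paired, and the title numbers were not checked in this way.

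Directions reversed only for members that were not called. Between adjacent tissue and small intestine *Notum* (0.0049) became -0.0378 with normexp and -0.0071 with the slide as a block, and ran from -0.252 to 0.261 with 1 array left out, while *Apcdd1* ran from -0.15 to 0.88. Between colon and small intestine *Nkd1* (-0.0018) became 0.0291 with normexp, 0.013 with quantile normalization, 0.0233 with the authors' table and 0.0497 with the slide as a block, and ran from -0.316 to 0.247 with 1 array left out. There *Axin2* became 0.0411 with the slide as a block and ran from -0.4 to 0.346, and *Wif1* from -0.42 to 1.495. *Notum* in CT26 against colon ran from -0.329 to 0.0781, and the difference between the tumor comparisons for *Nkd2* from -0.231 to 0.361. The median gene tested in CT26 against colon lay at 0.32, and at 0.11 with normexp. The cause of these changes was not tested. Signals near background limit what can be said of *Wif1*, *Axin2*, *Nkd1*, *Dkk3* and *Rnf43* in CT26 and of *Apcdd1* in colon.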
